A study of Mus musculus with 13 samples.

Results

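Cells positive for Adgre1 were examined in mouse liver sections from a time course of partial hepatectomy, as the available handle on Kupffer cells and other liver macrophages. The cells were chosen by their measured Adgre1 count alone: a cell was taken as Adgre1-positive when at least 3 Adgre1 transcripts had been counted inside its outline. Of 131221 cells 5625 met this rule, or 4.29%. A further 10445 cells held 1 or 2 Adgre1 counts and 115151 held none. Counts of the other genes played no part in the choice.

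Kupffer cells are the resident macrophages of the liver and sit inside the sinusoids, where they take up particles and dying cells from the blood and signal to hepatocytes during regeneration. Adgre1 encodes F4/80, the surface receptor by which mouse macrophages are usually recognised. Lyz2 encodes lysozyme, an enzyme of the myeloid lineage, and Ptprc encodes CD45, a phosphatase found on leukocytes in general.

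The sections came from male C57BL/6 mice labelled as 2 months old, in a time course of removal of 2/3 of the liver. The 0 h sections were treated as the unoperated baseline. Of 13 sections, 2 each were taken at 0 h, 24 h, 48 h and 72 h, with times counted from surgery. A further 3 were taken at 14 d, and the latest times, 3 mo and 6 mo, had 1 section each. The labels give the same age for all; where that was the age at the operation, the late mice were older than those at 0 h, and age and time cannot be told apart. Transcripts of a chosen panel of 100 genes were counted in place by Molecular Cartography, which detects single transcripts by repeated fluorescent labelling of a tissue section. The pair at 24 h shares a slide position and has no replicate number, so its counts were summed, which left 12 libraries. Whether sections are of different mice is not in the labels, and p-values may therefore reflect technical spread alone. The sections held 4586 to 15817 cells and the cells a median of 232 to 643 counts outside the Adgre1-positive cells. The 3 sections at 14 d had the largest totals, 7104425 to 9619206 counts against 1678015 to 5057675 in the rest, and all of them lay on slide 3, which held no other time.

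Of 18 myeloid markers listed for the check of identity, the panel held Adgre1, Lyz2 and Ptprc. Markers that separate Kupffer cells from recruited macrophages, such as Clec4f and Timd4, are not among the panel genes, so the cells are called Adgre1-positive here. Lyz2 was detected in 94.6% of them and Ptprc in 75.1%, and 98 of the 5625 cells held neither. In the cells below the Adgre1 minimum, Lyz2 was detected in 23.2% and Ptprc in 9.26%. The positive cells held fewer counts than the others, with a median of 346 against 404. After each cell was thinned to 100 transcripts, Lyz2 was detected in 84.0% of 5499 Adgre1-positive cells and 15.0% of 117475 others, and Ptprc in 45.6% and 5.01%.

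The mean Lyz2 count was larger at each step of the Adgre1 count. Cells with no Adgre1 held a mean of 0.965 Lyz2 counts, cells with 1 held 8.13 and cells with 2 held 12.3. Just inside the minimum, cells with exactly 3 Adgre1 counts held 14.4 Lyz2 counts, and cells with 10 or more held 23.3. Detection of Ptprc went from 6.35% at 0 Adgre1 counts to 53.1% at 2, 65.1% at 3 and 94.4% at 10 or more. These steps pool the cells of all sections and were not thinned. The median total was 412 counts at 0 Adgre1 counts, 311 at 3 and 410 at 10 or more. At 10 or more, the mean Ptprc count ran from 1 to 6.79 between sections. The part of depth and of the mix of sections was not tested. The rule took in 68.4% of all Adgre1 counts in cells. The highest Adgre1 count in a cell was 28, reached by 2 cells at 72 h, of which 1 held 31 Lyz2 and 6 Ptprc counts.

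Adgre1-positive cells made up a larger share of cells in every 72 h and 14 d section than in either 0 h section, although no test could pass a threshold of 0.05 with so few sections. At 0 h they were 3.95% (441 cells) and 2.18% (258 cells) of the cells of the sections. At 24 h they were 2.18% (141 cells) and 2.33% (107 cells), and at 48 h 4.24% (410 cells) and 3.06% (293 cells). At 72 h the share was 6.49% (311 cells) and 6.03% (684 cells). The 72 h sections lay above both 0 h sections, and the 24 h sections at or near the lower of them. At 14 d the share was 5.58% (641 cells), 6.95% (1088 cells) and 4.03% (638 cells), of which the lowest was just above the higher 0 h section. The single sections at 3 mo and 6 mo had 4.24% (344 cells) and 2.51% (269 cells), inside or just above the range at 0 h.

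**Figure D1:**
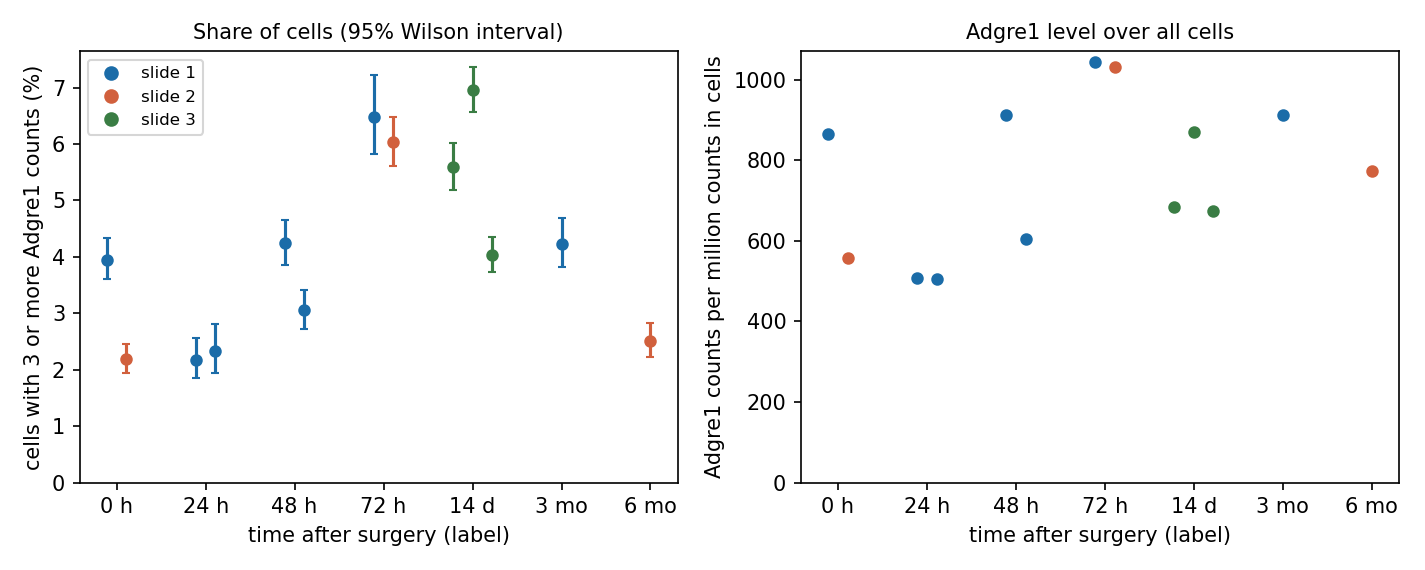
Left, share of cells with 3 or more Adgre1 counts in each section (percent; bars are 95% Wilson intervals, which cover counting error only); right, Adgre1 CPM (Adgre1 counts scaled to a common total). Points are sections coloured by slide; both 72 h sections sit above every 0 h, 24 h and 48 h section in both panels, while the 14 d sections lie above both 0 h sections on the left and overlap them on the right.

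The mean share at 72 h was 2.04 times that at 0 h (6.26% ± 0.324 against 3.07% ± 1.25, SD, n = 2 sections each). The exact two-sided permutation p was 0.333, the smallest that 2 sections against 2 allow. Within slide 1 the ratio of 72 h to 0 h was 1.64, and within slide 2 it was 2.76. At 48 h the ratio was 1.19 and the groups overlapped (exact permutation p = 0.667). At 14 d the ratio was 1.80 (5.52% ± 1.46, n = 3; exact permutation p = 0.2, with 0.1 the smallest possible). Other measures gave other ratios at 14 d. Among cells with at least 100 counts the ratio of shares was 1.77. The Adgre1 level per total counts (CPM) was 742 ± 111 at 14 d and 711 ± 218 at 0 h, a ratio of 1.04, and the ratio was 1.07 for the share of cells with 1 or more Adgre1 counts after thinning to 100 transcripts, which changes the minimum as well as the depth. At 72 h the last pair of ratios was 1.46 and 1.31, and the 72 h and 0 h groups did not overlap by either measure.

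Positive cells lay along the whole axis of the lobule between the central vein and the portal tract. Each cell was placed by the pooled counts of its 20 nearest cells without Adgre1, using 9 genes of hepatocytes near the central vein and 6 of hepatocytes near the portal vein, and ranked within its section from 0 (most central) to 100 (most portal). The positive cells had a mean rank 1.46 ± 3.70 higher than the other cells (SD over 12 libraries), portal-ward in 7 of 12, and an exact two-sided sign-flip permutation test gave p = 0.202. Against other cells of the same total count the difference was 0.133. Of 3 zones of equal cell number, the middle one held 33.1% to 42.2% of them and was the fullest in 9 of 12 libraries. Of 10 bins of equal cell number, the most central had a lower share of positive cells than the mean of the middle pair of bins in 10 of 12 libraries, and the most portal in 11 of 12.

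The shift along the axis differed between times. At 0 h the positive cells were displaced toward the portal side by 4.75 and 9.26 ranks. At 14 d all 3 sections were displaced toward the central side, by -1.05, -1.86 and -4.13 ranks. These groups did not overlap, and the exact permutation p was 0.1, the smallest possible for 3 against 2. In the most central bin 1.70% and 0.593% of cells were positive at 0 h, against 5.23%, 8.18% and 5.50% at 14 d, and 5.22% and 3.88% at 72 h. Depth and slide differed between 0 h and 14 d as well, and their part was not tested. At 48 h the displacements were -2.11 and 2.30 ranks and at 72 h 0.452 and 3.84, all below both 0 h sections (exact permutation p = 0.333 each, the smallest possible).

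**Figure D2:**
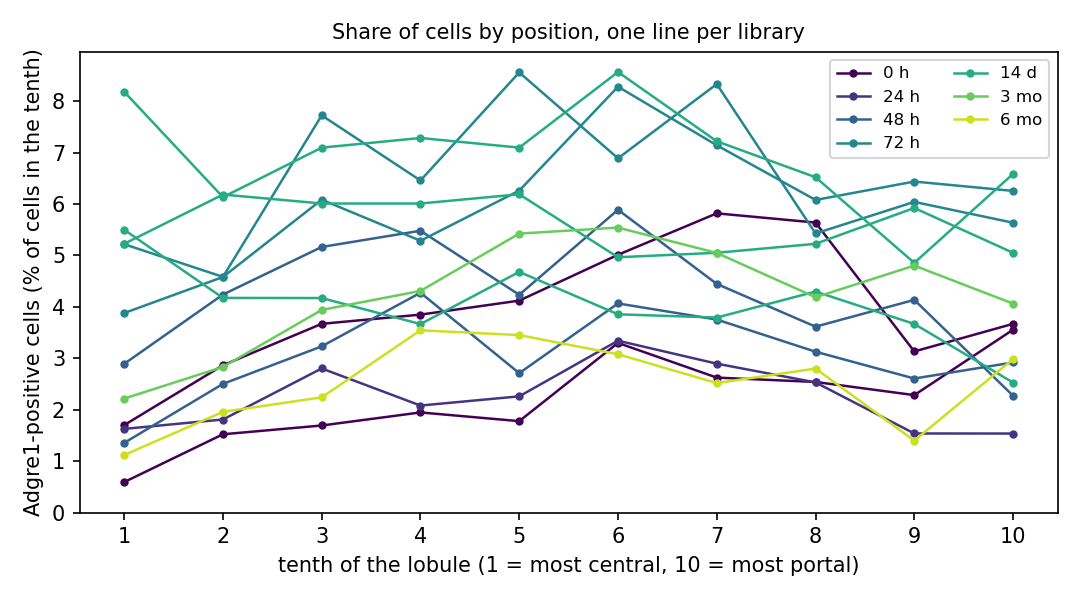
Share of cells that were Adgre1-positive (percent) in each of 10 bins of the lobule from most central (1) to most portal (10), one line per library, coloured by time. At 0 h the lines start at 0.593% and 1.70% in the most central bin and are higher toward the middle, while the 14 d lines start at 5.23% to 8.18%.

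Positive cells had more positive cells near them than other cells did. Among the 10 nearest cells of a positive cell 4.99% on average were positive, against 4.27% among those of other cells. The log2 ratio was 0.23 ± 0.24 (SD, 12 libraries), above 0 in 10 of 12, with an exact sign-flip permutation p = 0.00342. The ratio ran from 0.970 to 1.79, with the second 0 h section the highest. Without that section the log2 ratio was 0.18. The median distance from a positive cell to the next one was 228 to 434 coordinate units, against 84.2 to 96.7 units to the nearest cell of any kind. What length a unit stands for is not stated in the labels or files.

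To see which transcripts belonged to the positive cells rather than to their surroundings, each was set against its 5 nearest cells without Adgre1, each used once. Positive cells held far more Lyz2 and Ptprc, and also more transcripts known from endothelial and stellate cells, which line and wrap the same sinusoids, and less of most hepatocyte enzymes. With edgeR, 60 of 94 genes tested differed at an adjusted p under 0.05, or 63.8% of the genes: 27 were higher (28.7%) and 33 lower (35.1%). With scaling by total counts the split was 40 higher and 21 lower, and relative to cell number 19 higher and 45 lower. The median gene shifted by 0.19 on the log2 scale between TMM and total-count scaling, so small differences have no settled direction.

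Lyz2 averaged 10.1 to 25.3 counts per positive cell over the libraries and 0.385 to 2.16 per neighbour. All 12 libraries were higher in the positive cells, and the edgeR log2 fold change was 4.33 ± 0.21 (SE; adjusted p = 1.08e-09). Ptprc averaged 1.35 to 4.55 counts per positive cell and 0.0743 to 0.460 per neighbour, again higher in 12 of 12 (4.18 ± 0.16; edgeR adjusted p = 6.29e-12). Both myeloid genes that could be tested were thus higher, by 20.1 and 18.2 times.

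Genes known from the other sinusoidal cells differed less. Lrat, the retinol-storing enzyme of stellate cells, averaged 1.13 to 4.70 counts per positive cell against 0.335 to 1.60 per neighbour (log2 fold change 1.87 ± 0.08). Pecam1, an adhesion receptor of endothelial cells, averaged 0.896 to 4.92 against 0.462 to 2.87 (0.87 ± 0.08). Rspo3, which amplifies Wnt signals and is made by central-vein endothelium and stellate cells, was higher by 1.38 ± 0.15. Wnt2 and Wnt9b, Wnt ligands of central endothelium, had values of 0.25 ± 0.14 and 0.17 ± 0.17 and did not pass (edgeR adjusted p = 0.118 and 0.354). Of the endothelial list 2 of 4 tested genes were higher and of the stellate list 2 of 2, with Rspo3 in both, against 28.7% of all genes higher. The part of such cells lying within the same outline in these values was not tested.

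Among the Wnt ligands 4 of 16 tested were higher and 3 lower, near the share over all genes (28.7% and 35.1%), with a median log2 fold change of 0.18 against 0.01 for all genes. Wnt1 averaged 0.0839 to 0.345 counts per positive cell and 0.0245 to 0.0961 per neighbour, higher in 12 of 12 libraries (1.83 ± 0.12; edgeR adjusted p = 3.34e-14). Wnt4 averaged 0.0669 to 0.131 against 0.0186 to 0.0809, also higher in 12 of 12 (1.49 ± 0.14). Of 19 Wnt receptor and feedback genes 6 were higher and 6 lower, again near the share over all genes. Lrp5, a coreceptor for Wnt ligands, averaged 3.77 to 8.47 counts against 1.49 to 5.77 (1.12 ± 0.07). Lower were Lgr5 (-1.62 ± 0.20) and Rnf43 (-1.23 ± 0.09), both known as Wnt target genes of central hepatocytes. Rspo1, a further amplifier of Wnt signals, had a log2 fold change of 1.67 ± 0.30 but was at 0 in the positive cells of 2 libraries and at or below 0.0496 counts per cell elsewhere.

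Ccnd1, the cyclin that carries cells into the division cycle, averaged 0.930 to 7.17 counts per positive cell and 0.351 to 4.46 per neighbour, higher in 12 of 12 libraries (1.03 ± 0.06). Ccne1, which acts after it, had 0.20 ± 0.10 and did not pass (edgeR adjusted p = 0.0744).

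Many hepatocyte genes were lower in the positive cells, to unequal extents, but not all. By share, Gstm2, Gstm3 and Rgn were higher by 1.31, 1.18 and 1.22 times. In counts per cell they were higher in 7, 6 and 6 of 12 libraries. Of the complement list, C6 was higher (1.87 times, and per cell in 11 of 12 libraries), while the other 2, C8b and Vtn, were lower. These genes lie outside the rule for named genes of this test. The lowest value was that of Cyp7a1, the enzyme that starts bile acid synthesis from cholesterol, at -2.51 ± 0.11, with 0.00775 to 0.457 counts per positive cell against 0.0278 to 2.98 per neighbour. G6pc, which releases glucose from the liver, was lower by -1.73 ± 0.08 and Cyp8b1, a second bile acid enzyme, by -1.02 ± 0.09. Cyp2e1, an abundant central enzyme, was at 12.9 to 59.3 counts per positive cell and 24.7 to 131 per neighbour (-0.70 ± 0.04), so the positive cells still held many hepatocyte transcripts. All 6 portal hepatocyte genes were lower, led by Pck1 (-0.79 ± 0.09), although the smallest, Gls2 (-0.20 ± 0.07), was about the size of the scaling shift of 0.19. Of 9 central hepatocyte genes 4 were lower and 2 higher. The higher ones were Oat and Glul (glutamine synthetase, 0.31 ± 0.07), and Glul turned to -0.35 when all cells without Adgre1 took the place of the neighbours. Together the 15 hepatocyte genes made up 35.1% of the counts of positive cells and 48.9% of those of the other cells.

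**Figure D3:**
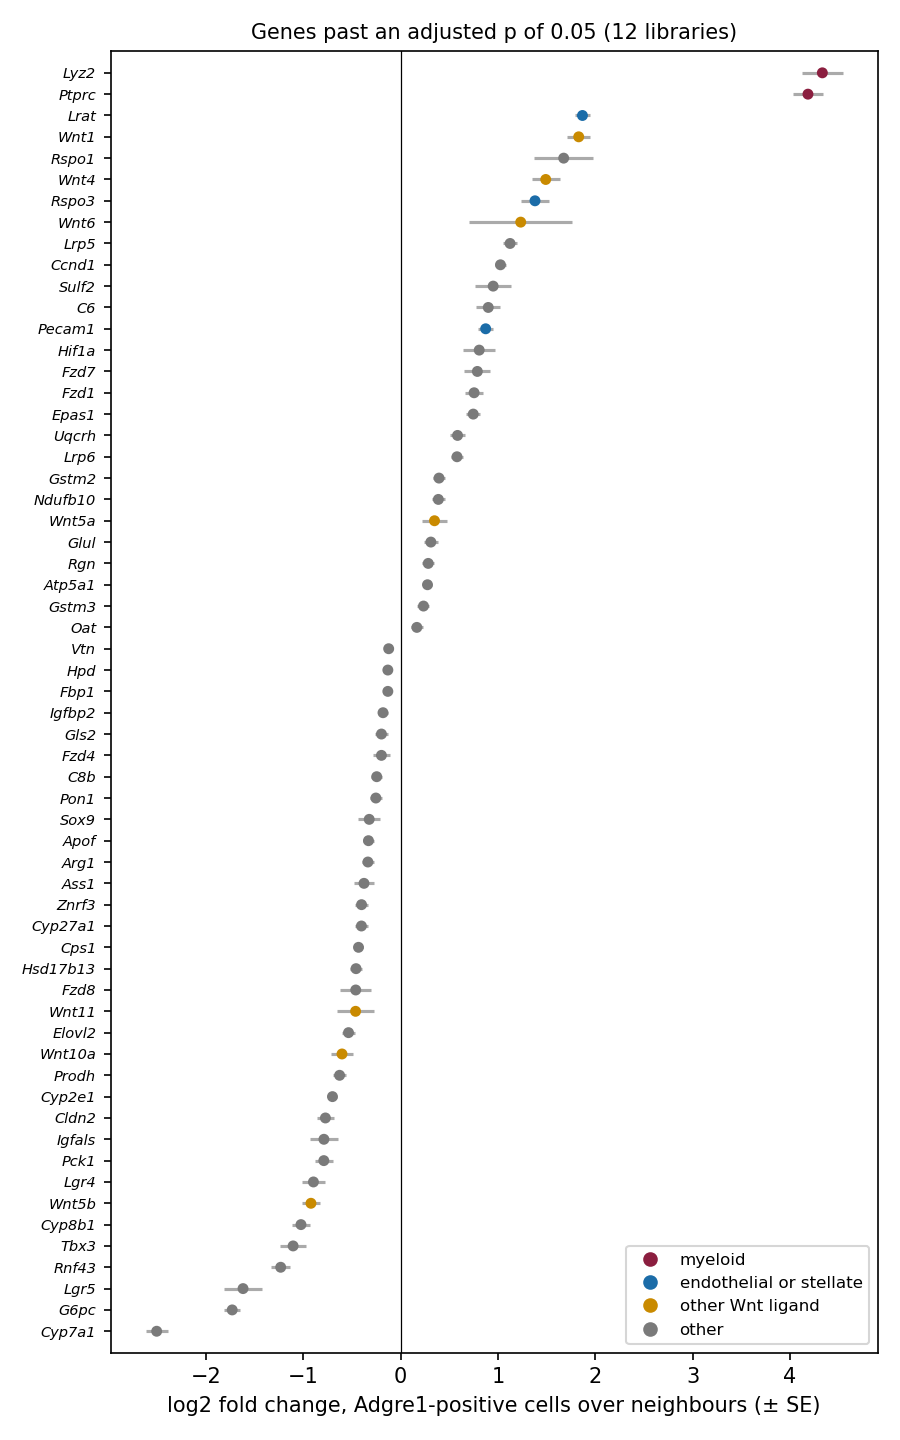
log2 fold change (± SE) of Adgre1-positive cells over their neighbours without Adgre1, edgeR over 12 libraries, for the 60 genes past the threshold. Lyz2 and Ptprc stand apart at 4.33 and 4.18, and Cyp7a1 is lowest at -2.51.

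A second view used no cell outlines. Every transcript was assigned its distance to the nearest Adgre1 transcript in 11 libraries; the positions of the third 14 d section were not used here. Within 40 units of an Adgre1 transcript, against a ring from 80 to 160 units, 52 of 72 genes tested differed in share at a limma adjusted p under 0.05, or 72.2%, with 32 higher (44.4%) and 20 lower (27.8%). Lyz2 was higher by 5.15 ± 0.14 and Ptprc by 4.67 ± 0.08 on the log2 scale. Wnt1 (2.30 ± 0.09), Lrat (2.22 ± 0.05) and Wnt4 (2.22 ± 0.08) followed at nearly the same value, then Rspo3 (1.98 ± 0.09) and Pecam1 (1.47 ± 0.07). Wnt2 was higher by 0.76 ± 0.11 and passed here. Cyp7a1 (-1.89 ± 0.19) and G6pc (-1.28 ± 0.07) were again lowest. These distances start from the same Adgre1 transcripts that chose the cells, so the 2 views share their source.

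Genes with like enrichment differed in how tightly they followed Adgre1. The share of Lyz2 at 0 to 10 units was a median of 158 times its share at 240 to 320 units and fell to 25.1 times at 20 to 30 units. For Ptprc the medians were 132 and 19.7, and for Wnt1 19.3 and 3.28. C6, a complement component, stood at 8.48 and 1.58. C6 lies outside the rule for named genes of this test and was chosen after its values were seen. Lrat instead stood at 5.85 and 4.44 and Wnt4 at 5.35 and 5.65, so both changed far less over these distances than Wnt1, which had a like value within 40 units.

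The ratio of the share at 0 to 10 units to that at 20 to 30 units put the same genes in order. It was a median of 6.68 for Wnt1 (range 3.52 to 10.2 over 11 libraries), 6.38 for Ptprc (4.89 to 9.48), 5.97 for Lyz2 (3.64 to 8.70) and 5.25 for C6 (3.59 to 7.43). The ranges of these genes overlapped, and each was above 1 in 11 of 11 libraries. The other genes above 2 were Fzd7 and Lrp5, at 2.80 each, Hif1a at 2.66 and Pecam1 at 2.05, above 1 in 11 of 11 libraries but for Hif1a, which was so in 10 of 11 on 87 transcripts. Fzd7 and Hif1a were named here after their values were seen. Lrat was at 1.14 (0.858 to 1.71), below the lowest Wnt1 library throughout. Over the 69 genes with enough transcripts the median was 0.779, and 8 genes were above 2. These ratios are a description and were not tested.

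Most Wnt1 transcripts nevertheless lay away from Adgre1. A median of 6.02% of Wnt1 transcripts lay within 10 units of an Adgre1 transcript and 19.6% within 40, against 0.358% and 4.68% of all transcripts. For Lyz2 the shares were 17.1% and 59.3%, for Ptprc 17.7% and 53.1%, and for C6 3.34% and 10.5%. The 0 to 10 unit bin held 458 Wnt1 transcripts in all, against 59105 of Lyz2 and 8213 of Ptprc.

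**Figure D4:**
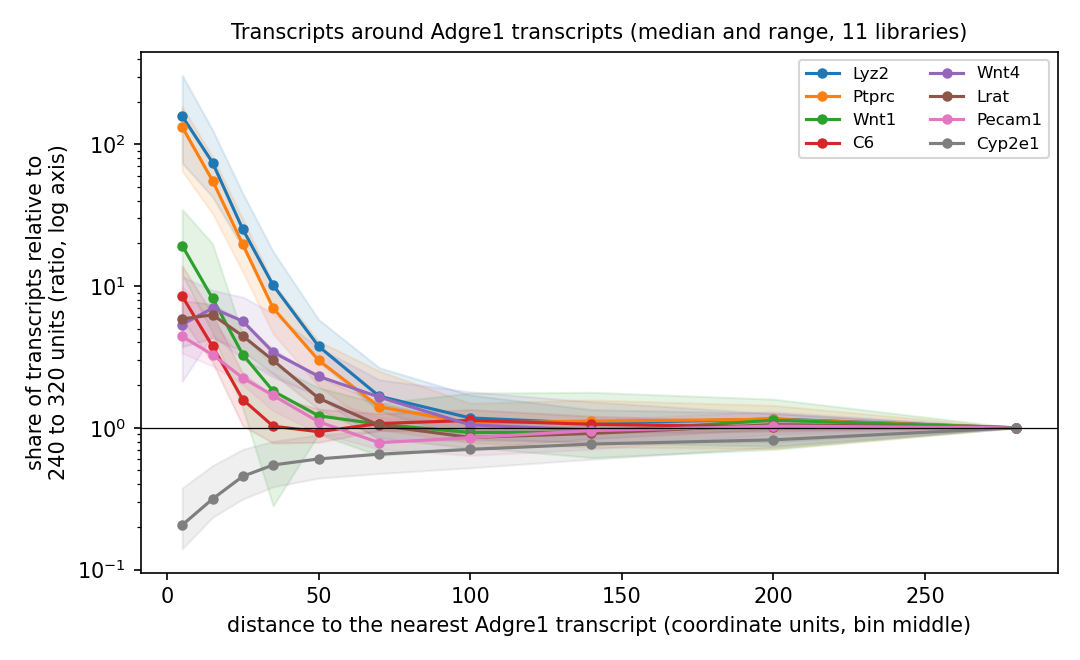
Share of each gene's transcripts among all but Adgre1, by distance to the nearest Adgre1 transcript (coordinate units), relative to the share at 240 to 320 units (ratio, log axis); lines are medians and bands ranges over 11 libraries. Lyz2, Ptprc, Wnt1 and C6 fall steeply over the first 30 units, Lrat and Wnt4 stay level to about 20 units, and Cyp2e1 lies below 1.

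Within the positive cells, Ccnd1 and Gstm3 rose in the first days after surgery, the hepatocyte genes Cyp8b1 and Cyp2e1 fell at 24 h and 48 h, and endothelial and biliary genes were among those that rose at 14 d. All times were compared with the same 0 h sections in a single edgeR fit of 86 genes with 5 residual degrees of freedom, so the comparisons share their control. The fit also pools its estimate of spread over the genes tested. The p-values thus rest on more than these 5 degrees of freedom, and very small ones lean on that pooled estimate. At 24 h 24 genes passed (27.9%), 11 higher (12.8%) and 13 lower (15.1%). At 48 h 18 passed (20.9%), 8 higher (9.3%) and 10 lower (11.6%). At 72 h 16 passed (18.6%), 9 higher (10.5%) and 7 lower (8.14%). At 14 d 37 passed (43%), 18 higher (20.9%) and 19 lower (22.1%). At 3 mo 4 passed (4.65%), 1 higher (1.16%) and 3 lower (3.49%), and at 6 mo 8 (9.3%), 3 higher (3.49%) and 5 lower (5.81%).

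The split of these calls rested on the scaling. By total counts the higher and lower calls were 13 and 7 at 24 h, 18 and 5 at 48 h, 15 and 2 at 72 h, 34 and 8 at 14 d, 1 and 0 at 3 mo, and 5 and 6 at 6 mo. Relative to cell number, an alternative added after seeing the data that leaves depth per cell in, they were 13 and 1, 23 and 3, 27 and 0, and 66 and 3 from 24 h to 14 d, and 0 and 4 at 6 mo. No gene passed at 3 mo with that scaling, where edgeR with TMM had 12 genes at an unadjusted p under 0.05. The median gene shifted by up to 0.51 on the log2 scale between TMM and total-count scaling. At 14 d time cannot be told apart from slide 3.

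Ccnd1 rose at every time, although at 3 mo the call held in 10 of 20 alternatives. It stood at 1.31 and 0.930 counts per positive cell at 0 h, 4.54 at 24 h, 4.71 and 7.17 at 48 h, 6.52 and 4.74 at 72 h, 4.89, 4.94 and 4.74 at 14 d, 2.65 at 3 mo and 2.36 at 6 mo. Every later library was above both 0 h libraries. The edgeR log2 fold change was 1.61 ± 0.27 at 24 h, 1.80 ± 0.23 at 48 h and 1.63 ± 0.23 at 72 h, with adjusted p from 1.07e-07 to 1.79e-12, and it was called in every alternative run at these times. The neighbours held 0.632 and 0.351 at 0 h and 3.12 and 4.46 at 48 h, and the change of Ccnd1 against them was -0.12 ± 0.17 at 48 h (edgeR adjusted p = 0.705) and -0.57 ± 0.20 at 24 h (adjusted p = 0.0711, called in 9 of 20 alternatives). Per cell, positive cells held 2.08 and 2.65 times the Ccnd1 of their neighbours at 0 h and 1.31 to 2.01 times at the later times, all below 0 h. Ccne1 rose by 2.33 ± 0.54 at 24 h, 2.87 ± 0.47 at 48 h and 2.03 ± 0.47 at 72 h. At 48 h it stood at 0.473 and 0.648 counts per positive cell and 0.507 and 0.670 per neighbour.

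Gstm3, a glutathione transferase, was the gene that rose most in the positive cells from 24 h to 72 h. It stood at 0.426 and 0.298 counts per cell at 0 h, 6.79 at 24 h, 13.7 and 15.1 at 48 h, and 8.86 and 6.75 at 72 h (log2 fold changes 3.82 ± 0.26, 4.74 ± 0.25 and 3.72 ± 0.24). The neighbours held as much or more at these times, with 16.2 and 17.4 counts at 48 h. Cyp8b1 fell by 2.02 ± 0.50 at 24 h and by 3.64 ± 0.42 at 48 h on the log2 scale, and Cyp2e1 fell by 1.2 ± 0.43 and by 2.12 ± 0.34. The part of transcripts from neighbouring hepatocytes in these changes was not tested.

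Ptprc fell in the positive cells relative to their other transcripts at 24 h (-0.91 ± 0.31; edgeR adjusted p = 0.0188) and 48 h (-1.03 ± 0.25; adjusted p = 0.000323). Neither call held by total counts (-0.65 and -0.59) or relative to cell number (-0.52 and -0.47), both still below 0. In counts per cell it was 1.72 and 2.46 at 0 h, 1.46 at 24 h, 1.35 and 1.68 at 48 h, and 2.23 and 2.04 at 72 h. All 24 h and 48 h libraries were below the 0 h range, and the 72 h ones inside it. At 72 h the value was -0.64 ± 0.25 (adjusted p = 0.0497), called in 7 of 22 alternatives, and 0.03 relative to cell number. Lyz2 at 72 h was -0.74 ± 0.26 (edgeR adjusted p = 0.0322), called in 12 of 22 alternatives. It stood at 13.7 and 10.1 counts per cell against 13.0 and 11.5 at 0 h, so the groups overlapped in that measure. Against the change in neighbours, Ptprc was at -0.37 ± 0.26 at 24 h, 0.13 ± 0.20 at 48 h and 0.52 ± 0.20 at 72 h. The 48 h and 72 h values did not pass (edgeR adjusted p = 0.705 and 0.0623). Lyz2 at 72 h was higher by that measure, at 0.75 ± 0.13 (edgeR adjusted p = 3.73e-06).

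At 14 d the endothelial genes Wnt2 (1.34 ± 0.49), Wnt9b (3.29 ± 0.77) and Pecam1 (0.64 ± 0.23) rose in the positive cells, 3 of 4 of the endothelial list against 20.9% of all genes higher. Wnt2 also rose at 24 h (2.23 ± 0.60) and 48 h (1.52 ± 0.53), and Wnt9b at 24 h (3.39 ± 0.96) and 72 h (2.98 ± 0.83). The lower 0 h library held 0.00388 Wnt9b counts per positive cell, so the Wnt9b fold changes rest on few transcripts at 0 h. In cells without Adgre1, Wnt2 and Wnt9b lay mostly on the central side, with median log2 ratios of portal to central of -3.08 and -5.51. The positive cells at 14 d lay further central than those at 0 h, and the part of position in these rises was not tested. Wnt2 stood at 0.0499 and 0.0194 counts per positive cell at 0 h and 0.296, 0.255 and 0.177 at 14 d. Among the neighbours it was 0.0830 and 0.0506 at 0 h and 0.198, 0.184 and 0.160 at 14 d. Both biliary genes rose at 14 d, Sox9 by 1.79 ± 0.44 and Cldn7 by 3.34 ± 0.84. Cldn7 was scarce, at 0 to 0.129 counts per positive cell over the libraries. Relative to the change in neighbours at 14 d neither biliary gene passed (Sox9 0.75 ± 0.34, edgeR adjusted p = 0.152). Pecam1 did not pass there either (-0.13 ± 0.19, edgeR adjusted p = 0.820), while Wnt2 (1.40 ± 0.39) and Wnt9b (2.34 ± 0.70) did. C6 (-2.07 ± 0.19), G6pc (-3.79 ± 0.96) and Elovl2, a fatty acid elongase (-2.12 ± 0.23), fell. Relative to cell number the values were smaller, -0.72 for C6, -2.47 for G6pc and -0.75 for Elovl2, and the G6pc call held in 16 of 21 alternatives. C8b, also of the complement list, was at -1.30 ± 0.20 but at 0.05 relative to cell number. G6pc differed between the 0 h libraries, with 1.16 and 7.34 counts per positive cell, against 0.688 to 0.858 at 14 d. Fzd2, a Wnt receptor, was at 0 in both 0 h libraries and at 0.0343, 0.0524 and 0.0125 counts per positive cell at 14 d.

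At 14 d Lyz2 and Ptprc counts were higher than at 0 h both in positive cells and in the cells beside them, and the ratio of positive cells to neighbours was smaller. Cells at 14 d were also deeper: relative to their other transcripts Lyz2 and Ptprc in positive cells were at -0.48 ± 0.24 and -0.34 ± 0.22 and did not pass (edgeR adjusted p = 0.085 and 0.213), while relative to cell number they passed at 0.87 and 1.00. Lyz2 was at 22.5, 25.3 and 19.5 counts per positive cell at 14 d, 22.2 at 3 mo and 19.0 at 6 mo, all above the 10.1 to 14.5 of the earlier libraries. In the neighbours Lyz2 was 0.604 and 0.570 at 0 h, 1.69, 1.94 and 1.70 at 14 d, 1.78 at 3 mo and 2.16 at 6 mo. Positive cells thus held 21.6 and 20.1 times the Lyz2 of their neighbours at 0 h, 13.3, 13.1 and 11.5 times at 14 d, 12.4 times at 3 mo and 8.79 times at 6 mo. Ptprc went from 18.6 and 24.3 times at 0 h to 9.68, 9.89 and 11.8 times at 14 d. At 3 mo and 6 mo it was at 15.3 and 16.4 times, between the 14 d and the 0 h values. These ratios did not overlap between 0 h and 14 d for either gene.

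**Figure D5:**
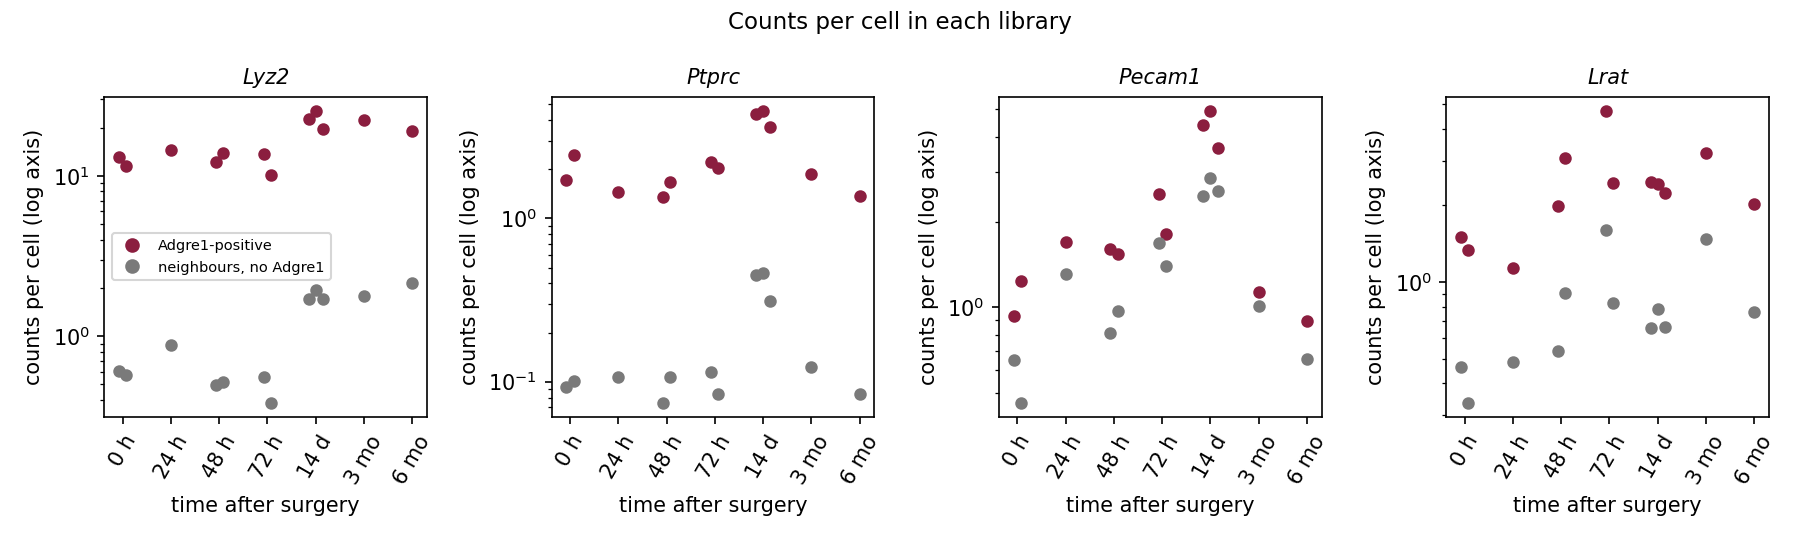
Counts per cell (log axis) of Lyz2, Ptprc, Pecam1 and Lrat in each library, in Adgre1-positive cells and in their neighbours without Adgre1, by time. Positive cells lie above their neighbours in all 12 libraries for each gene, and the ratio of positive cells to neighbours for Lyz2 and Ptprc is smaller at 14 d than at 0 h.

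The change of positive cells relative to their neighbours was tested as an interaction in edgeR over 94 genes. At 24 h 5 genes passed (5.32%), 3 higher (3.19%) and 2 lower (2.13%). At 48 h 8 passed (8.51%) and at 72 h 7 (7.45%), all of them higher. At 14 d 8 passed (8.51%), 6 higher (6.38%) and 2 lower (2.13%). At 3 mo 1 passed (1.06%), and at 6 mo 8 (8.51%), 7 higher (7.45%) and 1 lower (1.06%). These splits also turned with the scaling. By total counts there were 0 higher and 9 lower at 24 h and at 48 h, none at 72 h, 4 and 5 at 14 d, 0 and 8 at 3 mo, and 0 and 2 at 6 mo, and of the genes called with TMM 2, 0, 0, 6, 0 and 1 were called again. Relative to cell number there were 0 higher at each time but 14 d, which had 5 higher and 2 lower. The balance of higher and lower calls thus depended on the scaling. In the fit over time against neighbours, the TMM factors also depended on single sections. Leaving out a section of a time that a comparison does not use moved its median gene by up to -0.50 on the log2 scale, and by over 0.1 in 20 of 55 such cases, each of them without the first 24 h, the first 48 h, the second 72 h or the 6 mo section. By total counts none of the 55 moved by over 0.1. The values against neighbours over time carry that uncertainty.

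Ptprc at 14 d was -0.91 ± 0.17 (edgeR adjusted p = 1.2e-05) and was called in all 21 alternatives, from -1.39 to -0.54. It was the only 1 to be so of the 35 calls of named genes that were followed through the alternatives. None of the alternatives could separate 14 d from slide 3, which held that time alone. Lyz2 was -0.62 ± 0.12 at 14 d, called in 18 of 21 alternatives, and -0.88 ± 0.16 at 6 mo, called in 16 of 19. Gpc1, a heparan sulfate proteoglycan, was 1.95 ± 0.46 at 14 d and was called in 17 of 21. It was scarce, at 0.0116 to 0.256 counts per positive cell over the libraries. Wnt2 (1.40 ± 0.39) and Wnt9b (2.34 ± 0.70) at 14 d were called in 13 of 21 each. The counts of calls at each time moved by over 1.5 times with 1 library left out, and at 14 d ran from 2 without the second 72 h section to 15 without the third 14 d section. They also ran from 0 to 13 at 72 h, with 0 by total counts.

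By position, 5 of 9 central hepatocyte genes tested and 1 of 6 portal ones had a difference between positive cells and neighbours that changed along the lobule. These same central and portal genes set the position score, pooled from cells without Adgre1 only. Their counts in neighbours thus helped to place the zones, while those in positive cells did not. Calls for these genes are therefore not independent of the zones. The difference between positive cells and neighbours was compared between the portal and the central zone, and 12 of 89 genes passed in edgeR (13.5%), all relatively higher in positive cells on the portal side, with a median of 0.30 over all genes tested. They included Lgr5 (2.35 ± 0.65), Cyp7a1 (1.79 ± 0.42), Axin2 (1.68 ± 0.42), Glul (1.65 ± 0.24), Oat (1.54 ± 0.23) and Csad (1.34 ± 0.31). Pck1, a portal gene, was at 0.73 ± 0.20. Lgr5 had 60 counts in all positive cells of the 12 libraries, so its value rests on few transcripts. Cyp7a1 was scarce on the portal side, with a median log2 ratio of portal to central of -4.80 in cells without Adgre1. The count of calls was 6 by total counts (5 higher and 1 lower) and 37 with a position score without Cyp2e1. Glul averaged a median of 4.63 counts per positive cell in the central zone and 6.40 per cell without Adgre1, but 0.851 and 0.408 in the portal zone. Lyz2 (-0.05 ± 0.29) and Ptprc (-0.01 ± 0.25) did not pass (adjusted p = 0.931 and 0.963). In counts per cell Lyz2 was a median of 17.5 in central, 15.0 in middle and 13.5 in portal positive cells, and was higher in the portal than in the central zone in 1 of 12 libraries. Adgre1 itself was higher there in 6 of 12 and Ptprc in 8 of 12. The order of Lyz2 was noticed after its values were seen and was not tested.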

How the data were processed

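The authors deposited whole-number transcript counts per gene and cell, and transcript positions, per the labels; the length of the coordinate unit, decoding and cell outlining are not stated in the sources used here. A gene without a line in a section was taken as 0 counts. Members and lists were chosen with earlier results of these data known. Counts were summed over Adgre1-positive cells and over neighbours per library, without Adgre1, and genes with at least 10 counts in 2 libraries were tested with edgeR 4.0.16 in R 4.3.3 (TMM, robust quasi-likelihood test, Benjamini-Hochberg over all genes tested, threshold 0.05); errors are the log2 fold change over the square root of F. Transcript distances were tested with limma 3.58.1 (ring minimum 50 transcripts, pseudocount 0.5). TMM rests on most genes being stable, which may fail for a panel picked by hand. Named genes were a fixed set (Adgre1, Lyz2, Ptprc, Pecam1, Lrat, Sox9, Wnt2, Wnt9b, Rspo3, Ccnd1, Ccne1, Igf1, Glul, Cyp2e1, Pck1) and the 6 largest rises and falls per test. Alternatives covered scaling, DESeq2 1.42.0, filters, the Adgre1 minimum, neighbour choice, slide and left-out libraries; cell-number scaling was added after seeing the data. Scripts were tested on simulated counts: of 20 genes changed by 1.5 on the log2 scale, 17 were recovered for positive cells at 72 h (0 unchanged genes called), 11 for the interaction at 72 h (2 called) and 20 for positive cells against neighbours (4 called). Sections shared at most 2 cell names in a pair, none with the same counts.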

Additional observations from a re-analysis of the deposited data

Results flagged for a closer look

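The change of positive cells relative to their neighbours differed from 0 h, by the interaction term in edgeR, for the following named genes, given as log2 values (Atp5a1 at 48 h and Vtn at 72 h also passed but fall outside the rule for names); the signs of Cyp2e1, Cps1, Fads1 and Fzd8 turned in other settings, as the next section gives. At 24 h they were Wnt4 (-1.58), Lrp5 (-0.56), Cyp2e1 (0.31), Cps1 (0.38) and Cyp8b1 (1.1). At 48 h they were Cyp2e1 (0.4), Cps1 (0.43), Fads1 (0.5), G6pc (0.75), Lyz2 (0.75), Cyp8b1 (0.96) and Wnt2 (1.5). At 72 h they were Fads1 (0.44), Apom (0.48), Igf1 (0.55), G6pc (0.69), Lyz2 (0.75) and Wnt9b (2.26). The Lyz2 values at 48 h and 72 h were called in 11 of 21 and 12 of 21 alternatives. At 14 d they were Ptprc (-0.91), Lyz2 (-0.62), Ass1 (0.65), Fzd7 (1.07), Fzd8 (1.19), Wnt2 (1.4), Gpc1 (1.95) and Wnt9b (2.34). At 3 mo Ass1 (0.86) passed. At 6 mo they were Lyz2 (-0.88), Cyp2e1 (0.32), Cps1 (0.43), Apof (0.47), Vtn (0.52), Pon1 (0.65), Igf1 (0.66) and Glul (0.72).

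The mean displacement of positive cells along the lobule was 9.35 ranks further central at 14 d than at 0 h (a difference of -9.35), with every 0 h section portal-ward and every 14 d section central-ward. Against 72 h the difference was -4.49 ranks, also with all sections on opposite sides, and that difference was not tested.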

How the results depend on the processing

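The comparison with neighbours gave 55 to 62 calls with single libraries left out and the transcript distances 49 to 56, and neither moved by over 1.5 times in any alternative. The direction of position (0.755 to 1.97 ranks) and of grouping (log2 0.18 to 0.27) held without each library. The share at 48 h turned to -0.045 on the log2 scale when cells were thinned and the Adgre1 minimum lowered to 1. Of 5939 values of named genes under alternatives, 5196 kept direction and side of the threshold, 565 lost the call, 143 gained it and 35 reversed.

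Calls in positive cells over time were, without single replicates, 15 to 27 (24 h), 13 to 28 (48 h), 9 to 17 (72 h), 27 to 41 (14 d), 0 to 9 (3 mo) and 7 to 13 (6 mo). With an Adgre1 minimum of 5 (fewer cells) they were 11 (24 h), 10 (72 h), 24 (14 d) and 1 (3 mo). Relative to cell number they were 14 (24 h), 27 (72 h), 69 (14 d), 0 (3 mo) and 4 (6 mo). DESeq2 gave 25 at 72 h and 9 at 3 mo. At 3 mo total-count scaling gave 1, no filter 8, slide as a block 0 and 24 h as 2 libraries 1. Slide as a block gives no value at 14 d, since slide 3 held that time alone.

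Calls for the change against neighbours were, without single replicates, 0 to 5 (24 h), 3 to 15 (48 h), 0 to 13 (72 h), 2 to 15 (14 d), 0 to 6 (3 mo) and 1 to 12 (6 mo). Total-count scaling gave 9 at 24 h, 0 at 72 h, 8 at 3 mo and 2 at 6 mo. An Adgre1 minimum of 5 gave 0, 3, 3, 5, 0 and 1 from 24 h to 6 mo. All cells without Adgre1 gave 23 at 48 h, 19 at 72 h, 24 at 14 d and 20 at 6 mo; the nearest cell alone gave 2, 3, 13 and 1 from 24 h to 14 d and 3 at 6 mo. Cell number gave 3 at 24 h, 3 at 48 h, 3 at 3 mo and 2 at 6 mo. With 24 h as 2 libraries there were 1 (48 h), 3 (72 h), 14 (14 d), 0 (3 mo) and 1 (6 mo), and with no filter 11 at 72 h and 2 at 3 mo. The portal-central comparison gave 6 by total counts, 2 with the lobule split at its middle and 37 without Cyp2e1 in the score.

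Same-numbered sections correlated from -0.436 to 0.365, with 5 of 12 pairs over 0.1. Between times with 2 sections each, the pairs of both numbers gave the same value, so the 12 pairs are not independent. These correlations cannot show whether the replicate numbers pair the sections. With the replicate block there were 10 calls in positive cells at 72 h, and against neighbours 0 at 48 h, 0 at 72 h and 4 at 14 d, where Cyp2e1 (-0.079) and Cps1 (-0.047) reversed at 48 h.

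Relative to cell number, which leaves in the greater depth at 14 d, reversed values were Ptprc at 72 h (0.028), and at 14 d C8b (0.054), Lgr4 (0.13), Znrf3 (0.11), Cyp2e1 (0.27), Igf1 (0.60) and Lrat (0.74). Against neighbours it reversed Cyp2e1 (-0.053) and Cps1 (-0.0205) at 48 h, Fads1 (-0.028) at 72 h and Cyp2e1 (-0.057) at 6 mo. Total-count scaling reversed Cyp2e1 at 24 h (-0.00042), 48 h (-0.12) and 6 mo (-0.030), Cps1 (-0.092) and Fads1 (-0.018) at 48 h. Without single replicates Cyp2e1 (-0.13 to 0.43), Cps1 (-0.11 to 0.46) and Fads1 (-0.042 to 0.53) at 48 h, Cyp2e1 at 6 mo (-0.10 to 0.35) and Fzd8 at 14 d (-0.026 to 1.36) reversed. Glul against all cells without Adgre1 was -0.35. Around Adgre1 transcripts Sox9 within 20 units was -0.031, and Glul -0.00940 within 80 units and -0.19 against a ring from 160 to 320 units. Against neighbours, the median gene of a comparison moved by up to -0.50 with a section of another time left out, in 20 of 55 cases by over 0.1 with TMM and in 0 of 55 by total counts; the cause of the other changes was not tested. Low counts limit the rare genes: Wnt9b lay at or under 0.182 counts per positive cell, Rspo1 at or under 0.0496 and Lgr5 at or under 0.0218.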
